A study of Homo sapiens with 2 samples.

Results

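The amino acid response driven by the transcription factor ATF4, together with a set of tRNA synthetase genes, was followed in 2 human kidney cancer lines. The members were 37 genes picked by symbol: 10 transcription and stress regulators, 12 enzymes of amino acid synthesis and folate metabolism, 6 amino acid transporters and 9 cytosolic tRNA synthetases. A member was read on the array probe sets whose annotation names that gene alone, older symbols included. This gave 67 probe sets for 35 of the 37 genes, out of 54613 probe sets and 19775 genes in all. MARS1 and GPT2 had no such probe set and were not analysed here.

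786-O is a line from a renal cell carcinoma with a mutated VHL allele, and the second line, derived from 786-O, carries a functional one per the labels and is called the VHL-carrying line after them. Biotin-labelled total RNA of each line was run on 1 Affymetrix array. The labels give no treatment, infection or culture condition for either line. How the functional VHL allele was brought in, and whether the VHL-carrying line is a clone or a pool, is not given in the sources used here. Because each line had 1 array, no difference has a replicate check or a test. VHL itself ran against the labels: on the probe set above the floor described below it was at 28.9 in 786-O and 15.96, under that floor, on the array labelled VHL-carrying, at least 1.17-fold lower, and its other probe set was under the floor on both. Whether these probe sets cover the functional allele is not given in the sources used here, so every direction rests on the labels. The small number of arrays sets the precision of all values, and the words higher and lower describe these 2 arrays.

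ATF4 is a basic leucine zipper factor whose messenger RNA is translated when the initiation factor eIF2 is phosphorylated, which happens on amino acid shortage, on protein misfolding in the endoplasmic reticulum, with double-stranded RNA and with haem shortage. It pairs with C/EBP-type partners and switches on genes for amino acid synthesis, amino acid uptake and the charging of tRNAs, and also genes that feed back on the response. Part of its control lies in translation, so its messenger RNA level need not follow its activity. Kidney tubule cells, the source of this type of cancer, normally make serine and arginine for the rest of the body.

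Intensities are in arbitrary units on a linear scale, and where 2 are given for a probe set the first is that of 786-O. A difference is the log2 of the VHL-carrying intensity plus 16 less the same for 786-O, positive where the VHL-carrying array was brighter. Folds are taken with the same added 16, which makes those of dim genes too small. A gene is represented by its probe set with the highest mean log2 level. It counts as measured where the higher of its 2 values exceeds 22.3, the median of all deposited values, called the floor. All 35 members with a probe set were measured, 34 of them above the floor on both arrays, among 13291 measured genes in all.

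Most members were higher on the array labelled VHL-carrying. Of the 35 measured members 30 were higher and 5 lower, against 56.8% of all measured genes that were higher. At least 2-fold apart were 9 members, all higher, beside 3.72% of all measured genes in either direction. No member was 2-fold lower. Of all measured genes 1.54% were at least 2-fold higher and 2.18% at least 2-fold lower. At the smaller size of 1.5-fold, 18 members were higher and none lower, where 6.25% of all measured genes were 1.5-fold higher and 6.55% lower. The median difference of the members was 0.59 and that of all measured genes 0.05. When probe sets with the suffixes _s_at, _x_at and _a_at, which can match several transcripts, were left out, 23 members remained, of which 5 were at least 2-fold higher, and their median was 0.44.

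**Figure D1:**
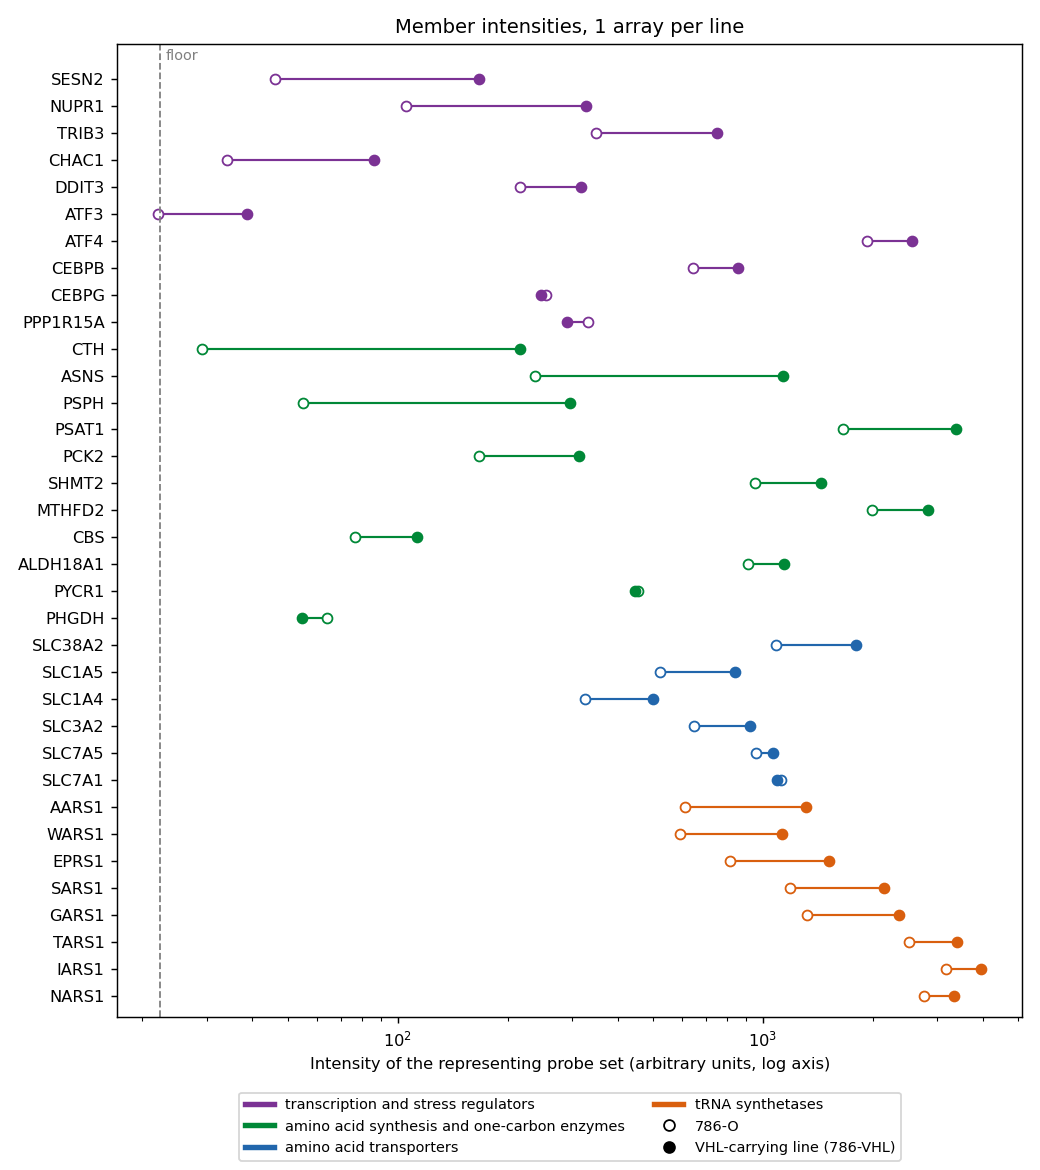
Intensity of the representing probe set of each measured member on the 786-O array (open circles) and the VHL-carrying array (filled circles), in arbitrary units on a log axis, coloured by role, with the floor of 22.3 as a dashed line. There is 1 array per line and so no error bar. In 30 of 35 members the filled circle lies to the right, with the widest gaps at CTH, PSPH and ASNS.

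The promoter sequences of some members hold the composite C/EBP-ATF site through which ATF4 and its partners are known to act, and they are printed to show where that site lies in members past 2-fold and in others. The motif searched was TGATGNAA on both strands, in the 250 bases before each RefSeq transcript start of build GRCh38.p14. RefSeq promoters matched 32 of the 37 members. The motif occurred before at least 1 start in 8 of these 32 genes. It occurred in 3.14% of all 35116 promoters and in 2.39% of the 10676 measured genes that have one. Genes with several starts have more sequence searched, and the members are known ATF4 targets, so the share describes the choice of members. Of the 9 members at least 2-fold higher, PSPH and NUPR1 had no such promoter and were not searched. ASNS, CHAC1 and AARS1 held the motif. Their upstream sequences are given 5′ to 3′ in the direction of the gene, with the motif in capitals. The stretch of ASNS lies on the minus strand at chr7:97872409-97872658, that of CHAC1 on the plus strand at chr15:40953221-40953470 and that of AARS1 on the minus strand at chr16:70289507-70289756.
ASNS: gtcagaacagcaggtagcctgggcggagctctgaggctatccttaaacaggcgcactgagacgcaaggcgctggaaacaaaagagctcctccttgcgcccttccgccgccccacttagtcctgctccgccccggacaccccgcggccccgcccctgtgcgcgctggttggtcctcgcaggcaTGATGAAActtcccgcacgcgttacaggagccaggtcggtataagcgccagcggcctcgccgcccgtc
CHAC1: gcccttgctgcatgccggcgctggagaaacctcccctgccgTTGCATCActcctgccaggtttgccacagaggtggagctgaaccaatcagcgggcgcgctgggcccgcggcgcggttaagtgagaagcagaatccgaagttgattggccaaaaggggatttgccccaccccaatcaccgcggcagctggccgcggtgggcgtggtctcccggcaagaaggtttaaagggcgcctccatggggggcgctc
AARS1: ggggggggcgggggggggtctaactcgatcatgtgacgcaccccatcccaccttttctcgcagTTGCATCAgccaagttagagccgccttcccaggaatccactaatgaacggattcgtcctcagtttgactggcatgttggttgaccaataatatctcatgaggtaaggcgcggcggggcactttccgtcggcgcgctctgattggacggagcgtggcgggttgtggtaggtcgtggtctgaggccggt

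The ASNS match reads along the gene from 68 to 61 bases before the start, whereas the CHAC1 match, 209 to 202 bases before, and the AARS1 match, 187 to 180 bases before, lie on the opposite strand and so read TTGCATCA here. The other 5 members with a match are shown by shorter stretches around it, to set members with wider differences beside members with small ones. They are ATF3 at chr1:212565205-212565234 on the plus strand, CEBPG at chr19:33374060-33374089 on the plus strand, GARS1 at chr7:30594834-30594863 on the plus strand, IARS1 at chr9:92293698-92293721 on the minus strand and SLC1A5 at chr19:46784893-46784922 on the minus strand. For CEBPG, GARS1 and SLC1A5 the match lies before a downstream alternative start.
ATF3: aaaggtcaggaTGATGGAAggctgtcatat
CEBPG: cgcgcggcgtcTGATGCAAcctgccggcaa
GARS1: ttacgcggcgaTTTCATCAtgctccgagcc
IARS1: ttttcagcgcgTTGCATCAcctcc
SLC1A5: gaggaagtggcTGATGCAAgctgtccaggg

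A match did not come with one size of difference. The 8 members that held the motif differed by -0.04 for CEBPG to 2.18 for ASNS, with a median of 0.75, and the 23 measured members with a promoter and no match by -0.18 to 2.36, with a median of 0.51. Of those 23 members with a promoter and no match 4 were at least 2-fold higher. A match is a stretch of letters and no measure of binding, and binding was not measured in these samples.

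Among the regulators, the factor itself differed less than some of its feedback targets. ATF4 was at 1926 in 786-O and 2554 on the array labelled VHL-carrying, 1.32-fold higher. Its difference of 0.40 ranked 1756 of 13291 measured genes. CEBPB, a partner of ATF4, was at 644 and 854, also 1.32-fold higher. CEBPG, another partner, was at 255 and 248, a difference of -0.04, and its second probe set at 240 and 139, a difference of -0.72. The representing probe set thus shows nearly equal levels, and the other a lower one on the array labelled VHL-carrying.

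DDIT3, which encodes the stress factor CHOP, was at 216 in 786-O and 318 on the array labelled VHL-carrying, 1.44-fold higher. ATF3, a repressor induced by stress, was the only member below the floor on an array, at 22.1 in 786-O against 38.7, at least 1.43-fold higher. Its other probe sets were at 18.5 and 23.5 and at 17.1 and 22.7, barely above the floor on 1 array, and add no size. PPP1R15A, known as GADD34, brings a phosphatase to eIF2 and so ends the response. It was at 332 and 291, a difference of -0.18, with -0.28 on its second probe set. DDIT3 and PPP1R15A, both targets that depend on ATF4, therefore lay on opposite sides of 0.

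The regulators at least 2-fold higher were SESN2, NUPR1, TRIB3 and CHAC1. TRIB3, a pseudokinase that binds and restrains ATF4, was at 349 in 786-O and 747 on the array labelled VHL-carrying, with differences of 1.06 and 1.23 on its 2 probe sets. CHAC1, which breaks down glutathione, was at 34.1 and 86.2, 2.04-fold higher on its only probe set. NUPR1, a small stress-induced chromatin protein, was at 105 and 327, 2.83-fold higher, and ranked 68 of 13291 measured genes by difference. SESN2, a leucine sensor that restrains the kinase mTORC1, was at 46.04 and 167, 2.94-fold higher. Its second probe set was at 61.7 and 73.2, a difference of 0.20, so the size for SESN2 rests on 1 of its 2 probe sets. Over the 10 regulators the median difference was 0.52, with 8 higher and 2 lower.

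Enzymes of amino acid synthesis held the widest differences among the members. CTH, the last enzyme of the transsulfuration route that makes cysteine from methionine, was at 29.2 in 786-O and 216 on the array labelled VHL-carrying, 5.12-fold higher, rank 21 of all measured genes. Its second probe set went from 18.95, below the floor, to 109, at least 3.26-fold higher. CBS, the enzyme before CTH in that route, was at 76.7 and 113, a difference of 0.48, with 0.46 and 0.07 on its other probe sets. Both enzymes of the route were thus higher, CTH by far the more.

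ASNS, which makes asparagine from aspartate and glutamine, was at 238 in 786-O and 1134 on the array labelled VHL-carrying, 4.53-fold higher, rank 25. Its other probe set was below the floor at 7.93 on both arrays. This is the gene whose match, printed above, lies nearest to its start among the 3 members at least 2-fold higher that hold one.

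The serine route was not higher at every step. PHGDH, its first enzyme, was at 64.2 in 786-O and 54.6 on the array labelled VHL-carrying, a difference of -0.18. PSAT1, the second, was at 1662 and 3377, 2.02-fold higher, with a difference of 1.31 on its other probe set. PSPH, the last, was at 55.1 and 296, 4.38-fold higher, and at 62.8 and 263 on its second probe set, a difference of 1.82. The first step, read on a single probe set, was thus not higher on the array labelled VHL-carrying, while both later steps were at least 2-fold higher. RefSeq names pseudogenes after 10 members, ASNS, ATF4, PSAT1, PSPH, MTHFD2, SLC7A5, AARS1, GARS1, NARS1 and WARS1. Probe sets can share sequence with such copies, so these members are uncertain to that extent.

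Serine feeds the mitochondrial folate cycle, where SHMT2 and MTHFD2 act in turn. SHMT2 was at 952 in 786-O and 1442 on the array labelled VHL-carrying, with differences of 0.59, 0.54 and 0.42 on its 3 probe sets. MTHFD2 was at 1995 and 2831, a difference of 0.50, with 0.43 on its second probe set. Both were higher by similar amounts on every probe set.

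In proline synthesis ALDH18A1, the first enzyme, was at 912 and 1145, a difference of 0.32, with 0.14 on its other probe set. PYCR1, the last enzyme, was at 454 and 447, a difference of -0.02, so it was nearly equal on both arrays. PCK2, the mitochondrial enzyme that makes phosphoenolpyruvate, was at 167 and 315, 1.81-fold higher. Over the 11 measured enzymes 9 were higher, 4 at least 2-fold, and the median was 0.59.

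Of the 6 amino acid transporters 5 were higher, 3 of them at least 1.5-fold, with a median of 0.55. None was 2-fold apart on its representing probe set. SLC38A2, a carrier of small neutral amino acids, was at 1085 in 786-O and 1799 on the array labelled VHL-carrying, 1.65-fold higher. On its other probe sets it was at 775 and 1638 and at 628 and 1349, differences of 1.06 and 1.08. SLC38A2 would therefore count as 2-fold higher on either of its other probe sets.

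SLC1A5, the glutamine carrier, was at 524 and 838, 1.58-fold higher. SLC1A4, a carrier of alanine and serine, was at 325 and 501, 1.52-fold higher, and its other probe sets above the floor differed by 0.40 to 0.69. Both neutral amino acid exchangers of this family were thus past 1.5-fold.

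SLC7A5, the large neutral amino acid carrier, works as a pair with SLC3A2, its heavy chain. SLC3A2 was at 646 in 786-O and 924 on the array labelled VHL-carrying, a difference of 0.51. SLC7A5 was at 959 and 1066, a difference of 0.15. SLC7A1, the carrier of arginine and lysine, was at 1124 and 1092, a difference of -0.04, and its 5 probe sets ran from -0.33 to 0.23 around 0. The carrier of cationic amino acids was the only transporter of the 6 that was lower.

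**Figure D2:**
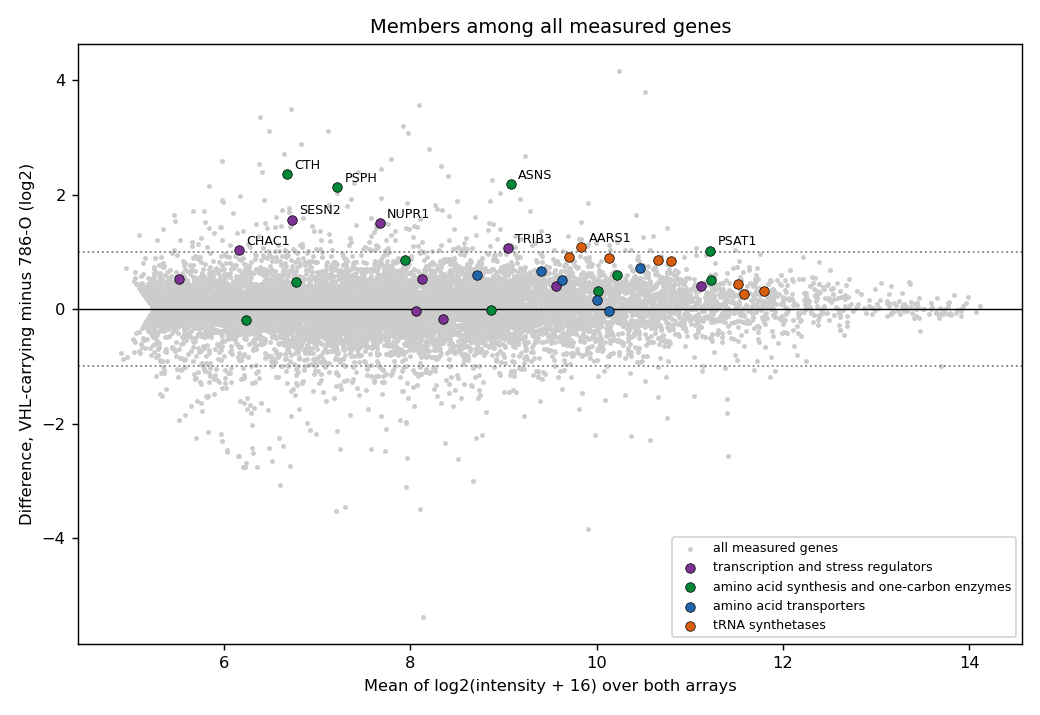
Difference between the arrays (VHL-carrying minus 786-O, log2) against the mean log2(intensity + 16) of both arrays, for 13291 measured genes (grey) and the 35 measured members (coloured by role), with dotted lines at 2-fold. The members at least 2-fold higher are named. The members lie mostly above 0 over the whole range of levels, and the synthetases lie among the brighter genes.

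All 8 measured tRNA synthetases were higher on the array labelled VHL-carrying. These enzymes load each tRNA with its amino acid and are needed by every growing cell. Their differences ran from 0.27 to 1.08 with a median of 0.84, and 5 of 8 were at least 1.5-fold higher, where 6.25% of all measured genes were. Since they are bright, the 1910 measured genes at least as bright as the dimmest of the 8 serve as a second background. Of those, 6.02% were at least 1.5-fold higher, and their median difference was 0.08.

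AARS1, for alanine, was at 613 in 786-O and 1311 on the array labelled VHL-carrying, 2.11-fold higher, the only 1 of the 8 past 2-fold. WARS1, for tryptophan, was at 592 and 1131, with differences of 0.91 and 1.19 on its 2 probe sets. WARS1 is known to be induced by interferon gamma as well as by ATF4. GARS1, for glycine, was at 1322 and 2365, 1.78-fold higher on its only probe set.

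SARS1, for serine, was at 1187 and 2153, 1.80-fold higher, and its dimmer probe set, at 47.6 and 62.7, differed by 0.31. EPRS1, for glutamate and proline, was at 810 and 1517, 1.85-fold higher. Its other probe sets were at 865 and 892 and at 420 and 406, differences of 0.04 and -0.05, so the value for EPRS1 rests on 1 of its 3 probe sets. Read on the median of its probe sets, EPRS1 would not be past 1.5-fold, and neither would SARS1, which leaves 3 of 8 synthetases past that size.

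TARS1, for threonine, was at 2512 and 3403, a difference of 0.44. IARS1, for isoleucine, was at 3180 and 3964, a difference of 0.32, and NARS1, for asparagine, at 2769 and 3337, a difference of 0.27. These 3 were higher by less than 1.5-fold.

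**Figure D3:**
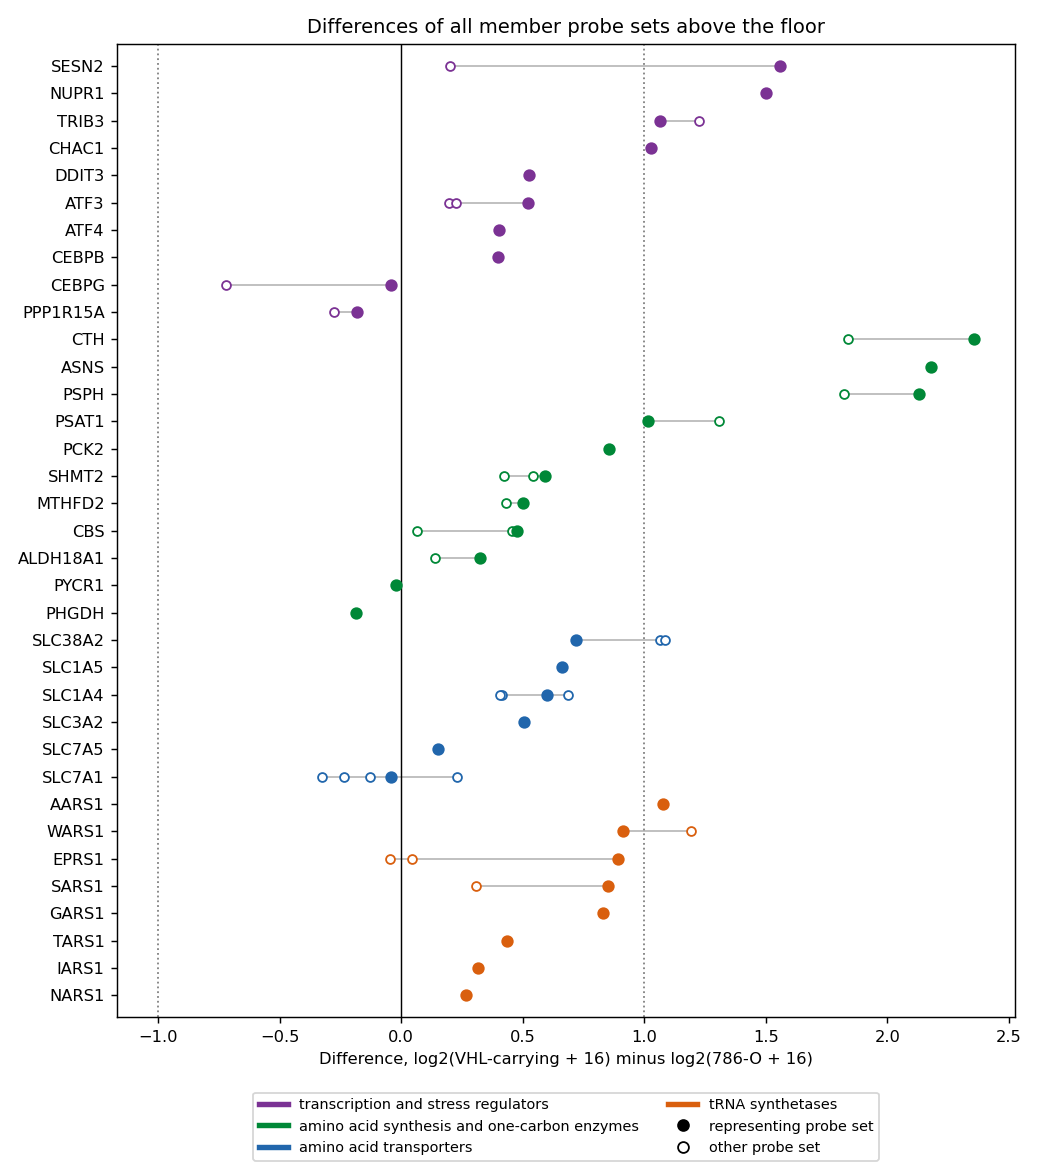
Difference between the arrays (VHL-carrying minus 786-O, log2(intensity + 16)) for each of the 63 member probe sets above the floor, 1 row per gene, filled for the representing probe set and open for others, coloured by role, with dotted lines at 2-fold. Probe sets of SESN2, EPRS1 and CEBPG lie far apart, whereas those of CTH, PSPH, PSAT1 and TRIB3 all lie above 1.

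How far the probe sets of 1 gene differ is the sole error estimate these data allow. Its SD was 0.33 log2 units over the 6436 genes read by more than 1 probe set above the floor, and it covers differences between probes, not between cultures or arrays. Of the 63 member probe sets above the floor 52 were higher on the array labelled VHL-carrying. Of the 18 members with several such probe sets, 16 had all of them on the same side of 0, and the range exceeded 0.58, the log2 of 1.5-fold, in 3. The other 17 members rested on 1 probe set above the floor.

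The measured genes around each member were read as well. A median over many neighbours varies less than single genes picked for their size, so the 2 were not compared in size. For each member the median difference of the 30 nearest measured genes on its chromosome, 15 on each side, was taken; TRIB3, near a chromosome end, had 18. These medians ran from -0.14 for SLC3A2 to 0.36 for CTH. The neighbours of PSPH had a median of 0.28, those of AARS1 0.23, those of SESN2 0.20 and those of ASNS 0.13. Their part in the member differences was not tested.

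Other cytosolic synthetases and their scaffold proteins had a median closer to 0 than the members. Of 10 measured, YARS1 for tyrosine alone was 2-fold higher on its representing probe set. It was at 665 in 786-O and 1503 on the array labelled VHL-carrying, though its second probe set differed by 0.10. FARSA, a subunit of the phenylalanine enzyme, was lower at 885 and 541, a difference of -0.69. VARS1 differed by 0.10, but by -1.05 on its other probe set. CARS1 differed by 0.46, with 0.39 to 0.60 on its 3 probe sets above the floor. The median of the 10 was 0.13. Of 15 mitochondrial synthetases 8 were higher and 7 lower, with a median of 0.05, and WARS2 had the widest difference, 0.68, followed by IARS2 with 0.62. The 8 members thus had a median difference of 0.84 beside 0.13 and 0.05 in the related lists, a difference between lists that was not tested.

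The kinases and factors upstream of ATF4 translation showed no gene 2-fold apart among 15 measured, 9 higher and 6 lower, with a median of 0.13. EIF2B1, a subunit of the exchange factor for eIF2, was at 446 and 696, a difference of 0.62. EIF2AK3, which encodes the endoplasmic reticulum stress kinase PERK, was at 287 in 786-O and 193 on the array labelled VHL-carrying, a difference of -0.54. EIF2AK4, which encodes the amino acid sensor GCN2, was at 396 and 326, and EIF2AK2, the double-stranded RNA kinase PKR, at 278 and 305. The 3 probe sets of EIF2AK2 ran from -0.38 to 0.19. Phosphorylation of eIF2, the step that these kinases carry out, was not measured.

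Further ATF4 targets outside the member list went both ways, 8 of 15 measured being higher and 7 lower, with a median of 0.21. DDIT4, an inhibitor of mTORC1 that hypoxia also induces, was at 73.3 in 786-O and 535 on the array labelled VHL-carrying, a difference of 2.63. GDF15, a secreted stress hormone, went from 18.5, below the floor, to 183, at least 5.19-fold higher. This was 1 of its 3 probe sets, and the others did not exceed the floor on either array. SLC7A11, the cystine carrier that NRF2 also drives, was at 346 and 732, with differences of 0.94 to 1.47 on its 3 probe sets. STC2 was lower, at 366 and 230, a difference of -0.63, and FGF21 was below the floor on both arrays. These 15 genes were therefore less uniform in sign than the members.

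The chaperone arm of endoplasmic reticulum stress, which XBP1 and ATF6 control, lay near the level of all measured genes. Of 19 measured genes none was 2-fold apart on its representing probe set, 12 were higher and 7 lower, and the median was 0.09. Other probe sets reached further, with DNAJC3 down to -1.36 and CALR from -0.35 to 0.97. HERPUD1, a degradation factor that ATF4 also induces, was at 698 in 786-O and 1261 on the array labelled VHL-carrying, a difference of 0.84, but its second probe set differed by 0.03. HSPA5, the main chaperone BiP, was at 4292 and 6226, a difference of 0.53, with -0.03 on its other probe set. HYOU1 was lower by a like amount, at 1223 and 840, a difference of -0.53.

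**Figure D4:**
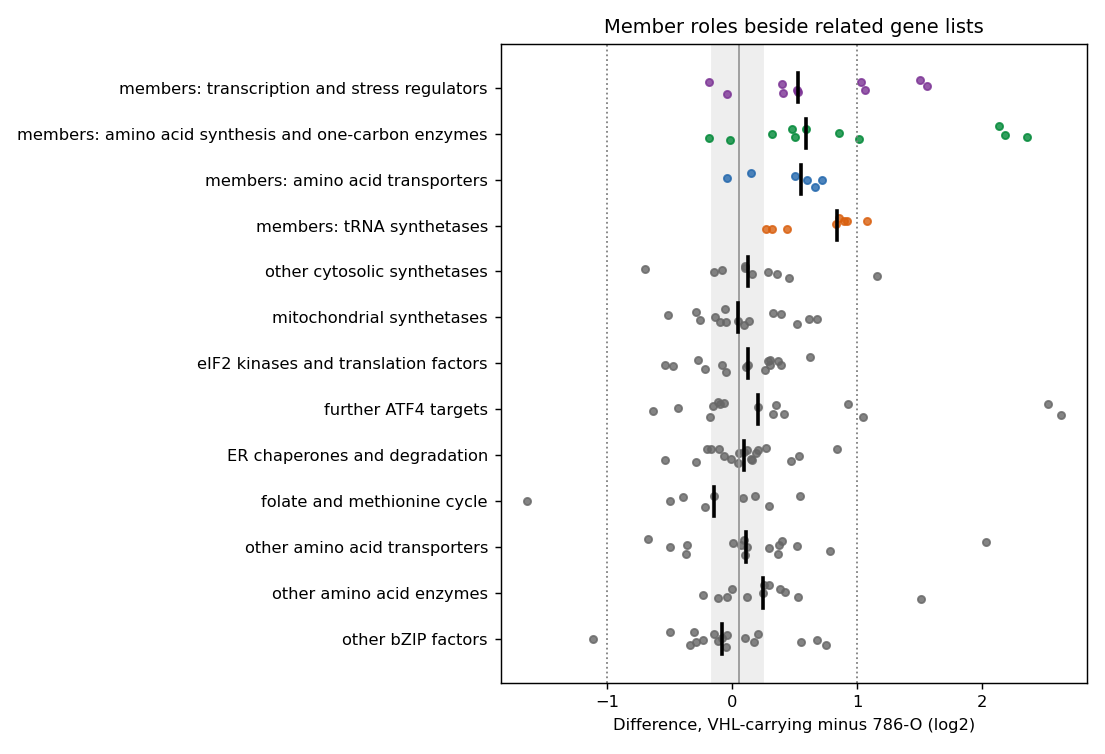
Differences (VHL-carrying minus 786-O, log2) of measured genes in the 4 member roles (coloured) and in 9 related lists (grey), 1 point per gene, with a black bar at each median, dotted lines at 2-fold, and the quartiles of all measured genes as a band from -0.16 to 0.25. The member medians lie between 0.52 and 0.84, and the medians of the related lists between -0.14 and 0.25.

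Neighbouring metabolism held single genes with wide differences. Of 9 genes of the folate and methionine cycles, GLDC, which breaks down glycine in mitochondria, was at 115 in 786-O and 26.1 on the array labelled VHL-carrying, a difference of -1.64, and its partner AMT was at 29.3 and 50.2, a difference of 0.55. Of 12 other amino acid enzymes ASS1, which makes the arginine precursor argininosuccinate, was at 523 and 1522, a difference of 1.51. The branched-chain aminotransferase gene BCAT1 differed by 0.53, the lowest of its 4 probe sets, which ran up to 1.22. Of 16 other transporters SLC7A7, a partner of SLC3A2 in the export of arginine and lysine, was at 57.3 and 284, a difference of 2.03, and the glutamate carrier gene SLC1A3 differed by 0.78. The list medians were -0.14, 0.25 and 0.11.

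Of 17 other basic leucine zipper factors 6 were higher and 11 lower, with a median of -0.08. MAFF, a small MAF protein, was at 313 and 136, a difference of -1.11 and of -0.58 on its other probe set, and ATF7 differed by 0.75. The median of these factors thus lay below 0, where that of the 10 member regulators lay above it. The 2 lists are not alike in kind, since the 4 regulators at least 2-fold higher, SESN2, NUPR1, TRIB3 and CHAC1, are not basic leucine zipper factors.

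The labelled cell type was checked against marker genes. PAX8, the renal lineage factor, was at 1521 in 786-O and 1068 on the array labelled VHL-carrying, a difference of -0.50. Its 8 probe sets were all lower, from -1.08 to -0.29. KRT18, an epithelial keratin, was at 5315 and 4960, while LRP2, a marker of mature proximal tubule, was below the floor on both arrays. ANPEP, a proximal tubule aminopeptidase, was at 256 and 535, a difference of 1.02, and the keratin gene KRT19 at 472 and 930, a difference of 0.96. MME went the other way, at 60.9 and 36.0, a difference of -0.57, with -0.99 on its other probe set. ANPEP was above the floor on 1 of 3 probe sets and KRT19 on 1 of 2. Of the 10 measured renal epithelial markers 5 were higher and 5 lower, with ANPEP alone past 2-fold on its representing probe set. The pan-leukocyte gene PTPRC was at 11.3 and 12.1 and the endothelial gene CDH5 at 9.87 and 12.5, both below the floor. Of the leukocyte, endothelial and fibroblast lists 1 of 8, 4 of 6 and 3 of 6 markers were measured. LUM, on the 1 of its 2 probe sets above the floor, went from 5.64, below it, to 37.1, at least 1.39-fold higher. No other of these was 2-fold apart. Fewer cells of a type and less RNA per cell cannot be told apart in such bulk samples. Of 10 housekeeping genes 7 were measured, and none was 2-fold apart, with a median difference of 0.10.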

How the data were processed

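The authors deposited linear intensities per probe set for 2 arrays of total RNA, extracted with Trizol per the labels' protocols. R 2.10 is named in the submitters' processing notes. How these intensities were background-corrected, normalized and summarized over probes is not given in the sources used here, and either step could compress or shift differences.

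Of 54613 probe sets a platform annotation gave 41091 a single gene, 1801 several and 11721 none, and only the first were used. For 41037 of them the Entrez number was found in RefSeq and the symbol was taken from there. Intensities were taken as log2(value + 16). The choice of probe set, the floor at the pooled median and the sizes of 2-fold and 1.5-fold are as described above. With 1 array per line there was no test, standard error or p-value. The members, the lists and the rules were chosen with earlier results of these data known. The rule for named genes took all members and, from each related list, genes at least 2-fold apart, or the 2 widest differences where fewer than 2 were. EIF2AK4, EIF2AK2, STC2, FGF21, VARS1, CARS1, DNAJC3, CALR and HYOU1, and the markers named, were picked once their values were known. Other settings run were quantile normalization, removal of the intensity trend by lowess, no floor, a higher floor (75th percentile), the median over probe sets, removal of suffixed probe sets, pseudocounts of 1 and 64, other fold sizes and, added after the data were seen, the probe set nearest 0. The steps were tested on simulated data holding known changes, all larger than 2-fold and the same on every probe set of a gene. The noise added was smaller than the spread between real probe sets. This run does not cover changes near 1.5-fold or 2-fold. Promoter sequences and gene order came from RefSeq GRCh38.p14. The tools were Python 3.11.15 with numpy 2.4.6, pandas 2.3.3, statsmodels 0.14.6 and matplotlib 3.10.9.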

Additional observations from a re-analysis of the deposited data

How the results depend on the processing

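No paired analysis was possible because there was a single array for each line, so no replicate could be left out either. In all 7 other settings that kept the 35 members, 30 were higher on the array labelled VHL-carrying. The 9 members at least 2-fold higher became 5 of 23 without suffixed probe sets, where fewer genes were tested, and 18 at 1.5-fold. With a pseudocount of 64 they were 6, and otherwise 8 to 10. The member median of 0.59 was 0.51 with the intensity trend removed, 0.51 over the median of probe sets, 0.44 without suffixed probe sets and 0.42 on the probe set nearest 0. The 5 synthetases at least 1.5-fold higher were 3 of 8 over the median of probe sets, 3 of 8 on the probe set nearest 0, 1 of 8 at 2-fold, and 3 of the 5 measured without suffixed probe sets, where the median was 0.85. Their median of 0.84 was 0.51 and 0.38 over the median of probe sets and on the probe set nearest 0. All measured synthetases were higher in every setting run. The count of all measured genes past 2-fold was 495, against 256 with a pseudocount of 64, 296 on the probe set nearest 0 and 1702 at 1.5-fold. AARS1, ASNS, CTH, NUPR1 and PSPH were at least 2-fold higher in every alternative that measured them. Their lowest differences were 1.00, 1.99, 1.59, 1.21 and 1.59, so AARS1 came down to the 2-fold line. CHAC1, PSAT1, SESN2 and TRIB3 were not past 2-fold in every alternative, with lowest values of 0.61, 0.92, 0.20 and 0.97. TRIB3 was past it in 8 of 9. The deposited values limit what can be said of CTH, CHAC1 and ATF3, whose 786-O intensities lie near the floor.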
